A study of Homo sapiens with 6 samples.

Results

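The 38 genes described here encode the integrin alpha subunits (18 ITGA genes), the integrin beta subunits (8 ITGB genes) and the laminin chains (12 LAMA, LAMB and LAMC genes). They were taken by gene symbol from a table of 26184 genes and loci. The rule uses no measured value, but the genes were chosen with earlier results of these data known. RNA of Huh7 P and of Huh7 LR was sequenced, with 3 samples each. Huh7 is an established human hepatocellular carcinoma cell line, and Huh7 P is its parental form, labelled wild type, untreated and at time 0. Huh7 LR is the lenvatinib resistant line, also labelled wild type, which was derived from Huh7 by continuous exposure to lenvatinib raised from 1 to 20 μM over 10 months. Lenvatinib is an inhibitor of the VEGF and FGF receptor tyrosine kinases and of several related kinases. All Huh7 LR samples come from 1 derived line that was kept in medium with 20 μM lenvatinib, and no change of medium before RNA extraction is described, so that resistance, months of culture and the presence of the drug cannot be told apart here. The study calls the samples of a line independent without saying at which step they were separated, and p-values measure the spread between these samples only.

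Laminins are secreted trimers of an alpha, a beta and a gamma chain that form the sheet of the basement membrane together with type IV collagen, nidogen and perlecan. Integrins are receptors made of an alpha and a beta subunit. The alpha subunit largely sets the ligand, and the beta subunit links the receptor through talin, kindlin and filamin to the actin cytoskeleton. Hepatocytes in the liver sinusoid face little basement membrane, while laminins and their receptors are known to be raised in many hepatocellular carcinomas.

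The reads counted on genes came to between 62738937 and 71427573 in the Huh7 P libraries and to between 63233655 and 70768720 in those of Huh7 LR. Where a library had no read, up to 3 counts remain possible at these depths, or 0.042 to 0.048 CPM, a limit that covers counting error only. CPM here are counts scaled to library size with edgeR's TMM factors and serve to compare 1 gene between libraries. FPKM, the authors' values that also divide by transcript length, serve to compare genes with each other. The 10 hepatocyte markers summed to between 15585 and 18838 FPKM in Huh7 P and between 20725 and 21798 FPKM in Huh7 LR, with ALB and AFP at the head, so that both lines carried the hepatocyte markers their label implies.

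Of the 38 genes, 27 had enough reads to test, and 4 (LAMA1, LAMC3, ITGA8 and ITGAX) had no count in any library. Adjusted p-values of single genes are from the quasi-likelihood test of edgeR, adjusted by the Benjamini-Hochberg method over all 17531 genes and loci tested. At an adjusted p under 0.05, 10 of the 27 were higher in Huh7 LR, where the share over all genes tested was 23.3%, and 3 were lower, against 22.4% of all genes. Past 2-fold with an adjusted p under 0.001, LAMA3 and ITGB3 were higher (2 of 27, against 4.43% of all genes) and ITGAM was lower (1 of 27, against 1.78%). In 11 of the 27 the lowest Huh7 LR library exceeded the highest Huh7 P library, which held for 28.2% of all genes, and in 3 the order was the opposite, against 27.7% of all genes. The median log2 fold change was 0.20 over the 27 genes and 0.0046 over all genes tested. In bulk RNA, fewer cells that express a gene and less of its RNA per cell cannot be told apart.

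**Figure D1:**
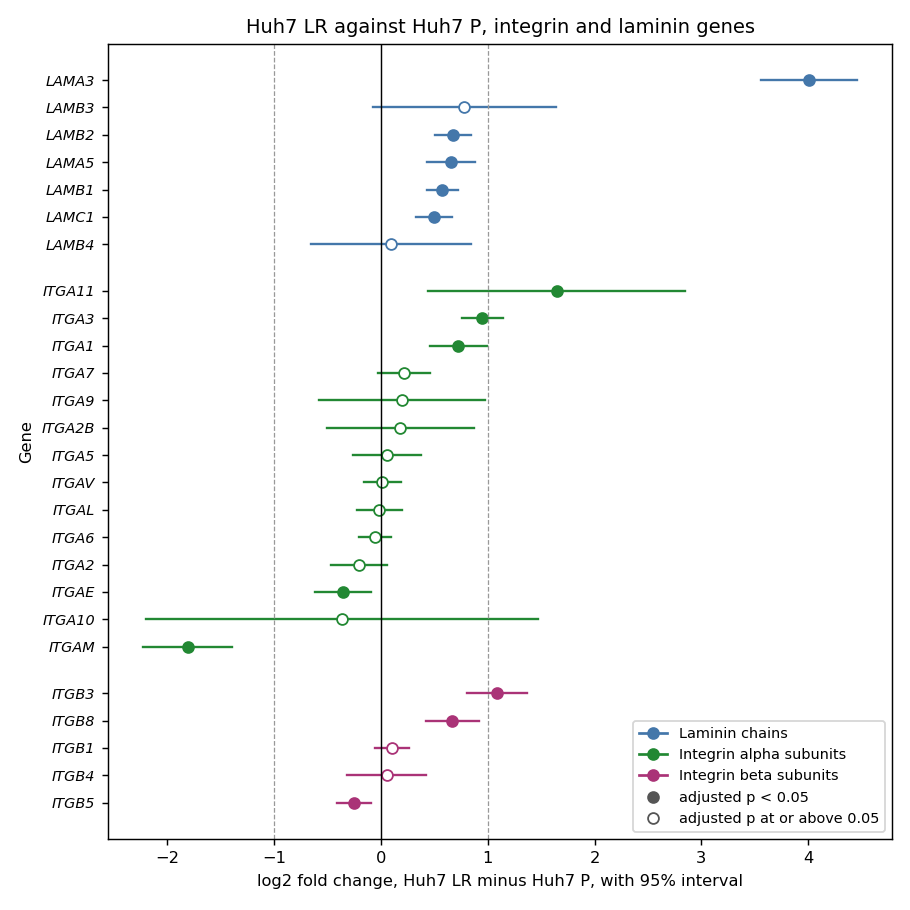
Log2 fold change of 26 of the tested genes (x axis, Huh7 LR minus Huh7 P, 3 libraries per line) with its 95% interval, grouped into laminin chains, integrin alpha subunits and integrin beta subunits. Filled points passed an adjusted p under 0.05 and open points did not, and dashed lines mark a 2-fold change. LAMA3 lies farthest to the right at 4.01 and ITGAM farthest to the left at -1.81, while all laminin chains drawn lie above 0.

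The laminin chains were the family with the highest median change. All 8 tested chains had a log2 fold change above 0 (median 0.61). Among them LAMA3, LAMA5, LAMB1, LAMB2 and LAMC1 rose (5 of 8, or 62.5%, against 23.3% of all genes tested). None fell (against 22.4% of all genes). Over the integrin alpha subunits the median was 0.03, with 3 higher and 2 lower of 14 tested. The higher share was 21.4%, near the 23.3% of all genes, and the lower share 14.3%, against 22.4%. Over the integrin beta subunits the median was 0.10, with 2 higher and 1 lower of 5 tested (40% and 20%). The family medians describe these genes and were not tested against each other.

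LAMA3 (chr18:23689443-23956222, plus strand, GRCh38) encodes the alpha chain of the epithelial laminins that anchor keratinocytes to their basement membrane. It was at 1.02, 0.583 and 1.04 CPM in the Huh7 P libraries and at 12.2, 15.3 and 15.2 CPM in the Huh7 LR libraries, with no overlap. The underlying counts were 73, 36 and 68 reads in Huh7 P and 796, 1073 and 1034 reads in Huh7 LR. LAMA3 rose by a log2 fold change of 4.01 (95% interval 3.56 to 4.45, adjusted p = 2.30e-07), which is 16.1-fold. In spite of this rise it stayed a minor chain, at 0.0749 ± 0.0216 FPKM (SD, n = 3) in Huh7 P and 1.27 ± 0.152 FPKM (SD, n = 3) in Huh7 LR. The size of this change depends on how low values are treated, since it was 1.07 by limma on log2(FPKM + 1), a scale that compresses values under 1 FPKM.

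LAMB3, the beta chain that joins LAMA3 in those epithelial laminins, did not pass the test. It was at 0.279, 0.357 and 0.260 CPM in Huh7 P and at 0.322, 0.614 and 0.601 CPM in Huh7 LR (log2 fold change 0.78, 95% interval -0.07 to 1.63, adjusted p = 0.123). The lines overlapped, and the interval includes the change of LAMA5 (0.65), so that a rise of that size was not resolved at these counts. LAMB3 was at 0.0619 ± 0.0105 FPKM in Huh7 P and 0.114 ± 0.0327 FPKM in Huh7 LR (SD, n = 3).

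LAMA5 (chr20:62307955-62367312, minus strand) encodes the broadly expressed alpha chain of mature basement membranes. It was at 341, 285 and 264 CPM in Huh7 P and at 431, 518 and 452 CPM in Huh7 LR, and rose 1.57-fold (log2 fold change 0.65, 95% interval 0.43 to 0.88, adjusted p = 0.00042). LAMB1 (chr7:107923799-108003255, minus strand), the beta chain of most embryonic and many adult laminins, was at 549, 551 and 541 CPM in Huh7 P and at 847, 788 and 807 CPM in Huh7 LR. Its rise was 1.49-fold (log2 fold change 0.57, adjusted p = 4.31e-05). LAMC1 (chr1:183023460-183145592, plus strand), the gamma chain shared by most laminins, stood at 259, 261 and 252 CPM in Huh7 P and at 336, 401 and 351 CPM in Huh7 LR. It rose 1.41-fold (log2 fold change 0.50, adjusted p = 0.000405). LAMB2 (chr3:49121114-49133118, minus strand), a beta chain known from the kidney filter and the nerve-muscle junction, was at 80.4, 74.3 and 79.8 CPM in Huh7 P and at 113, 134 and 126 CPM in Huh7 LR, a rise of 1.60-fold (log2 fold change 0.67, adjusted p = 5.18e-05). The lines did not overlap in any of these 4 genes.

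Since LAMA5, LAMB1 and LAMC1 form 1 laminin and rose together, while ITGAM fell by the largest factor among the 38 genes, the sequences before their start sites are given here, from RefSeq on GRCh38.p14, written 5′ to 3′ on the strand of the gene. The table held a start for 26 of the 38 genes, and ITGA3, ITGA7, ITGA9, ITGAD, ITGAL, ITGAX, ITGB2, ITGB3, ITGB4, LAMA1 and LAMC3 were among those not matched. Each printed sequence is the 250 bases before the start, less any bases that GENCODE places in an exon. Capitals mark every match on either strand to the letters GGGCGG (the SP1 motif), TGANTCA (the AP-1 motif), GGAATG (the TEAD motif) or TATAAA (the motif of the box named TATA), where matches may overlap.
LAMA5, chr20:62367313-62367562, minus strand: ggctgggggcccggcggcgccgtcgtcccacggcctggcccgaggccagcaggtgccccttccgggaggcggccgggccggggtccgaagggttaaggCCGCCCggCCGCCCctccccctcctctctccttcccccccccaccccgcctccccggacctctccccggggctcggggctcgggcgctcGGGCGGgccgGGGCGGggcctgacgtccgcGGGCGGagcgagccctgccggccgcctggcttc
LAMB1, chr7:108003256-108003411, minus strand: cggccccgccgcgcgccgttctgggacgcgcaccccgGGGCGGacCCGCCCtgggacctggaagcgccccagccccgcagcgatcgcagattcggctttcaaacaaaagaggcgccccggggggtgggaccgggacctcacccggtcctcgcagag
LAMC1, chr1:183023170-183023419, plus strand: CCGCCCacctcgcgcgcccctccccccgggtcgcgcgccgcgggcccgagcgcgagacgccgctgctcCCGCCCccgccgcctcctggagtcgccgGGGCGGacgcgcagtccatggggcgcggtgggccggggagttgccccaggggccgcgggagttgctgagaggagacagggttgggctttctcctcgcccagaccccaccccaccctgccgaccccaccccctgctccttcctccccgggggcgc
ITGAM, chr16:31259725-31259966, plus strand: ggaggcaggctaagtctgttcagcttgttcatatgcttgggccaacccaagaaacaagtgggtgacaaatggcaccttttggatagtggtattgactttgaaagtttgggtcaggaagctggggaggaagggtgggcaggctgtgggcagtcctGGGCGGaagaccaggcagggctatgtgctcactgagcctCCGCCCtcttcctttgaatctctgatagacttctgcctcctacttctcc

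All capitals in these 4 sequences are SP1 letters, at 5 places before LAMA5, 2 before LAMB1, 3 before LAMC1 and 2 before ITGAM. The full 250 bases before LAMB1 held them at 4 places. The 3 printed laminin sequences held 75.0% to 82.8% G or C, and that of ITGAM held 53.7%. The counts of motifs that follow are over the full windows of 250 bases, exon bases included, of which the 26 genes have 33, since some have several starts. The SP1 letters stood in 17 of the 33 windows (51.5%) and in 42.6% of all 35116 promoters of 250 bases in the table. Windows of the same gene can overlap and share a match, as before LAMB3. By gene, the SP1 letters stood before 14 of the 26. The AP-1 letters were in 2 of the 33 (6.06%), 1 each of LAMA3 and LAMB3, and in 6.57% of all promoters, so that the shares lay near each other. The LAMA3 window had them at 2 places, which began 125 and 69 bases before its listed start, and 0.402% of all promoters had them at 2 or more places. This LAMA3 start lies 183577 bases inside the gene as GENCODE draws it, and the counts per gene do not tell which start was used. Its window lies largely in exons that GENCODE annotates and is not printed. The TEAD letters stood in 4 of the 33 windows (12.1%, before ITGA5, ITGB1, ITGA10 and LAMA2), against 11.9% of all promoters, and the TATA letters in 2 (6.06%, before ITGB1 and ITGA6), against 10.7%. A match is a description of the letters and was not tested as a site.

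The other laminin chains were low or absent. LAMB4 was at 0.505 ± 0.146 CPM in Huh7 P and 0.538 ± 0.0963 CPM in Huh7 LR (SD, n = 3, adjusted p = 0.85). LAMA4, an alpha chain of vessel walls, had no read in Huh7 P and 18, 6 and 13 reads in the Huh7 LR libraries. LAMA2, the alpha chain of muscle, had no read in Huh7 P and 2, 2 and 3 reads in Huh7 LR, which is within the limit that no read allows. Neither gene had enough reads to test.

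Summed over the 12 chains, laminin transcripts amounted to 163, 156 and 151 FPKM in the Huh7 P libraries and to 239.7, 244 and 235 FPKM in the Huh7 LR libraries. The means were 157 ± 6.17 and 239.7 ± 4.53 FPKM (SD, n = 3 each), a ratio of 1.53 without overlap, with an exact permutation p of 0.1, the smallest that 3 samples against 3 allow. The same sums over the integrin alpha subunits were 63.8 ± 1.78 FPKM in Huh7 P and 70.2 ± 4.57 FPKM in Huh7 LR, and their libraries overlapped (exact permutation p = 0.2, n = 3 each). For the integrin beta subunits they were 174 ± 8.17 and 186 ± 2.67 FPKM, a ratio of 1.07, without overlap (exact permutation p = 0.1, n = 3 each).

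**Figure D2:**
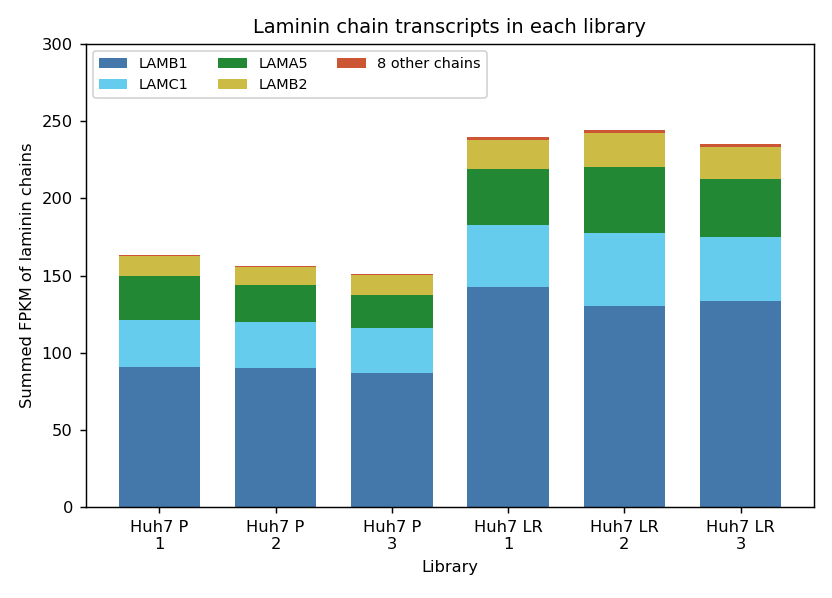
Summed FPKM of the laminin chains (y axis) in each of the 6 libraries (x axis), stacked by chain. Each bar holds LAMB1, LAMC1, LAMA5 and LAMB2, with the 8 other chains as the thin layer on top. The Huh7 LR bars end between 235 and 244 FPKM and the Huh7 P bars between 151 and 163 FPKM.

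Within this sum LAMB1 led in both lines, with 57.0% ± 1.14 of the laminin sum in Huh7 P and 56.6% ± 3.11 in Huh7 LR (SD, n = 3). LAMC1 and LAMA5 followed at 29.97 and 24.3 FPKM in Huh7 P, where their libraries did not overlap, and at 43.0 and 38.7 FPKM in Huh7 LR, where they did. LAMB2 came next at 12.7 FPKM in Huh7 P and 20.6 FPKM in Huh7 LR. The FPKM of LAMB1 over LAMC1 was 2.98 ± 0.0223 in Huh7 P and 3.17 ± 0.394 in Huh7 LR, and the lines overlapped (exact permutation p = 0.5, n = 3 each). LAMA5 over LAMC1 (0.809 and 0.899, exact permutation p = 0.4) and LAMB2 over LAMB1 (0.142 and 0.153, exact permutation p = 0.5) overlapped likewise. The share of LAMA3 in the sum was 0.0478% in Huh7 P and 0.528% in Huh7 LR, and its FPKM over that of LAMA5 went from 0.00311 ± 0.000986 to 0.0327 ± 0.00294 (SD, n = 3 each) without overlap. With 8 such ratios computed, the exact permutation p of 0.1 for this ratio became 0.2 after Benjamini-Hochberg adjustment.

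Markers of other cells that are known to make laminins were summed in the same way. The fibroblast and stellate cell markers summed to 0.378 to 0.428 FPKM in Huh7 P and 0.848 to 1.68 FPKM in Huh7 LR, where COL1A1 and PDGFRB, the only 2 of the 7 with enough reads to test, were both higher, and DCN and THY1 had no read in any library. Endothelial markers summed to 5.41 to 6.46 FPKM in Huh7 P and 8.97 to 9.82 FPKM in Huh7 LR, nearly all of it PECAM1, which was higher. VWF was also higher, on 19, 26 and 21 reads in Huh7 LR against 0, 0 and 8 reads in Huh7 P (adjusted p = 0.0179), while KDR, CDH5 and TEK had no read in any library. The biliary markers summed to 172 to 173 FPKM in Huh7 P and 171 to 175 FPKM in Huh7 LR, with EPCAM higher and KRT19 lower. Their part in the laminin result was not tested.

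Among the laminin-binding alpha subunits, ITGA3 (chr17:50055968-50090481, plus strand) was the only member of its group of 3 to pass the test. The higher share of this group was 33.3%, against 23.3% of all genes tested. ITGA3 pairs with ITGB1 and binds the laminins that contain LAMA3 or LAMA5. It was at 35.8, 36.8 and 35.1 CPM in Huh7 P and at 78.5, 63.7 and 65.8 CPM in Huh7 LR, a rise of 1.93-fold (log2 fold change 0.95, 95% interval 0.76 to 1.14, adjusted p = 1.02e-05). ITGA6, which pairs with ITGB1 or ITGB4 and binds many laminins, was at 150, 142 and 142 CPM in Huh7 P and at 143, 129.9 and 144 CPM in Huh7 LR. This is a log2 fold change of -0.06 (95% interval -0.21 to 0.10, adjusted p = 0.546). ITGA7, the laminin receptor of muscle, did not pass either (log2 fold change 0.22, adjusted p = 0.132), although its Huh7 LR libraries (9.68 to 10.3 CPM) all lay above its Huh7 P libraries (7.78 to 9.34 CPM). The FPKM of ITGA3 over ITGA6 went from 0.286 ± 0.0166 in Huh7 P to 0.566 ± 0.0507 in Huh7 LR without overlap (exact permutation p = 0.1, n = 3 each, 0.2 after adjustment).

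ITGB1 (chr10:32900319-33005792, minus strand), the beta subunit that pairs with most of these alpha subunits, was the most abundant integrin transcript in both lines at 142 ± 8.95 FPKM in Huh7 P and 156 ± 4.27 FPKM in Huh7 LR (SD, n = 3). It was at 510, 549.9 and 594 CPM in Huh7 P and at 603, 584 and 589 CPM in Huh7 LR, so that the lines overlapped (log2 fold change 0.10, 95% interval -0.06 to 0.26, adjusted p = 0.279). ITGB4, the partner of ITGA6 in hemidesmosomes, was at 4.40 ± 0.647 CPM in Huh7 P and 4.57 ± 0.779 CPM in Huh7 LR (SD, n = 3) and did not pass (adjusted p = 0.821).

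**Figure D3:**
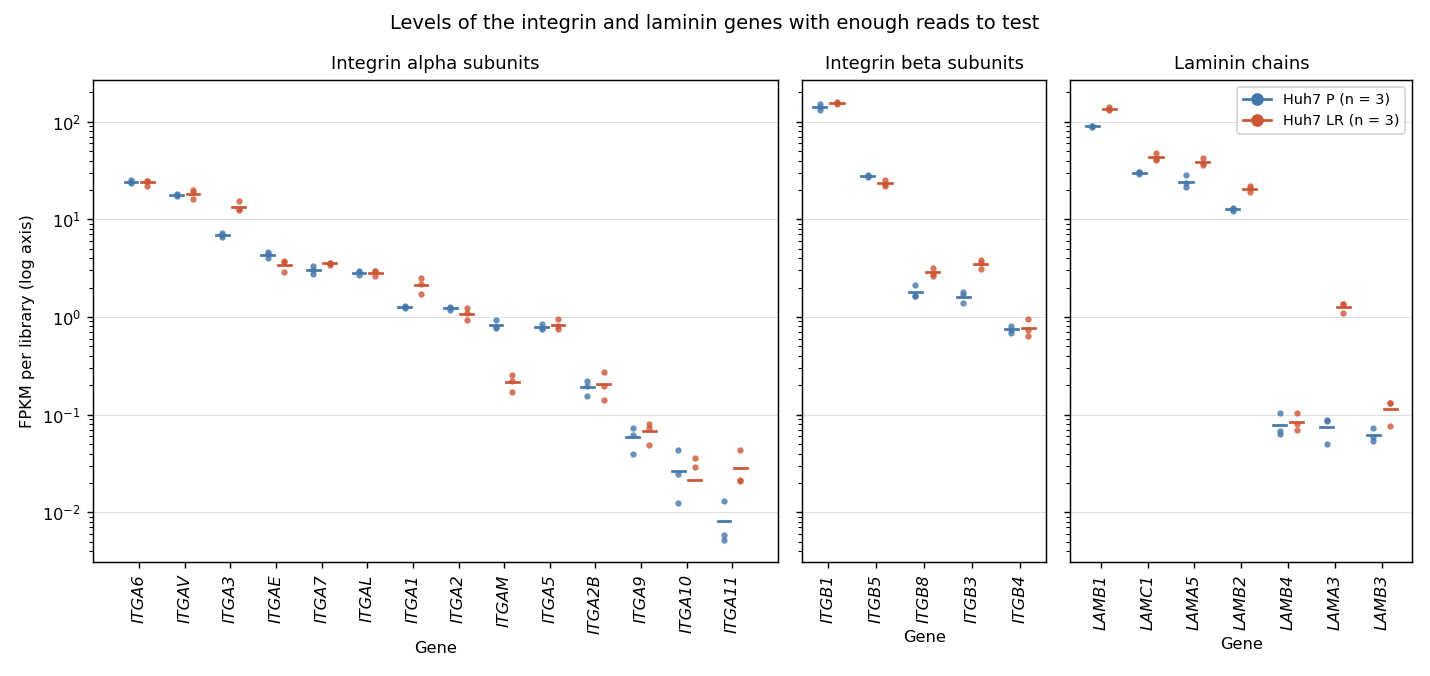
FPKM per library on a log axis (y axis) of 26 of the tested genes (x axis), ordered within each family by their mean in Huh7 P. Points are the 3 libraries of a line and short lines are the means, and the Huh7 LR library of ITGA10 without a read is not drawn. ITGB1 and LAMB1 lie at the top in both lines, LAMA3 moves from under 0.1 to above 1 FPKM, and ITGAM is the only gene of these that was lower past 2-fold.

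Of the 4 collagen-binding alpha subunits, ITGA1 and ITGA11 rose (50%, against 23.3% of all genes tested) and ITGA2 and ITGA10 did not pass. ITGA1 (chr5:52787896-52959210, plus strand), a receptor for type IV and type I collagen, was at 14.2, 15.2 and 15.1 CPM in Huh7 P and at 28.4, 20.0 and 25.2 CPM in Huh7 LR, a rise of 1.65-fold (log2 fold change 0.72, adjusted p = 0.00058). Its exons share 475 bases with PELO on the same strand, and summed with PELO, which alone did not pass (log2 fold change 0.06, adjusted p = 0.529), the log2 fold change was 0.31 (adjusted p = 0.00451). ITGA11, a receptor of fibroblasts for fibrillar collagen, had 5, 5 and 10 reads in Huh7 P and 15, 17 and 33 reads in Huh7 LR (log2 fold change 1.64, 95% interval 0.44 to 2.85, adjusted p = 0.0299). This call was lost without Huh7 LR replicate 3 (log2 fold change 1.21, adjusted p = 0.181), without Huh7 P replicate 1 (adjusted p = 0.104) and without Huh7 P replicate 2 (adjusted p = 0.0975). ITGA2, a collagen receptor of epithelia and platelets, was at 10.8, 10.0 and 10.8 CPM in Huh7 P and at 10.2, 7.91 and 9.25 CPM in Huh7 LR (log2 fold change -0.21, adjusted p = 0.179). ITGA10 had at most 16 reads in any library (adjusted p = 0.754).

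None of the alpha subunits that bind the RGD sequence of fibronectin and vitronectin passed the test. ITGAV, the common partner of several beta subunits, was at 138, 137 and 134 CPM in Huh7 P and at 141, 123 and 148 CPM in Huh7 LR (log2 fold change 0.01, 95% interval -0.16 to 0.19, adjusted p = 0.912). ITGA5, the main fibronectin receptor subunit, was at 3.83 ± 0.195 CPM in Huh7 P and 3.98 ± 0.495 CPM in Huh7 LR (SD, n = 3, adjusted p = 0.784). ITGA2B, known from platelets, stayed under 1 CPM in every library (adjusted p = 0.671). Of the other alpha subunits, ITGA9 was at 0.506 ± 0.148 and 0.581 ± 0.149 CPM (adjusted p = 0.685), and ITGA4 had 6 to 14 reads per library and was not tested.

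The beta subunits that pair with ITGAV moved in both directions while ITGAV itself did not pass. ITGB3 (chr17:47253846-47311816, plus strand), a receptor subunit for vitronectin and osteopontin, was at 7.06, 7.71 and 6.03 CPM in Huh7 P and at 12.9, 15.2 and 16.0 CPM in Huh7 LR, a rise of 2.12-fold (log2 fold change 1.08, 95% interval 0.80 to 1.36, adjusted p = 5.92e-05). Its log2 fold change was 0.99 without Huh7 P replicate 3, just under 2-fold. ITGB8 (chr7:20330702-20415754, plus strand), a subunit known for the activation of latent TGF-beta, was at 17.8, 14.9 and 14.9 CPM in Huh7 P and at 23.7, 22.9 and 29.02 CPM in Huh7 LR (log2 fold change 0.67, adjusted p = 0.000674). ITGB5 (chr3:124761948-124901418, minus strand), another vitronectin receptor subunit, fell from 124, 128 and 124 CPM in Huh7 P to 99.3, 114 and 103 CPM in Huh7 LR (log2 fold change -0.25, 95% interval -0.41 to -0.10, adjusted p = 0.0141). The ITGB5 call was lost without Huh7 P replicate 2 (adjusted p = 0.0742) and without Huh7 LR replicate 3 (adjusted p = 0.062).

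In FPKM, ITGB5 remained the most abundant of these subunits at 27.8 ± 0.59 in Huh7 P and 23.4 ± 1.66 in Huh7 LR (SD, n = 3). ITGB8 and ITGB3 overlapped in both lines, at 1.82 and 1.62 FPKM in Huh7 P and at 2.87 and 3.51 FPKM in Huh7 LR. The FPKM of ITGB3 over ITGB5 went from 0.0582 ± 0.00628 to 0.150 ± 0.0147 (SD, n = 3 each) without overlap (exact permutation p = 0.1, 0.2 after adjustment). ITGB5 over ITGAV was 1.56 ± 0.0365 in Huh7 P and 1.29 ± 0.224 in Huh7 LR, and the lines overlapped (exact permutation p = 0.2, n = 3 each, 0.32 after adjustment). ITGB6, known from injured epithelia, had no read in 3 libraries and at most 11 in any, and was not tested. Of the exon bases of ITGB3, 51.6% also belong to AC068234.1 on the same strand, which had no count in any library, so that summing both left the log2 fold change at 1.08.

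The integrins of leukocytes were lower or did not pass. ITGAM (chr16:31259967-31332892, plus strand), the alpha subunit of the complement receptor of macrophages and neutrophils, was at 3.75, 4.04 and 3.81 CPM in Huh7 P and at 1.09, 1.33 and 0.879 CPM in Huh7 LR. The counts were 269, 249 and 249 reads in Huh7 P and 71, 93 and 60 reads in Huh7 LR, so that ITGAM was 3.51-fold lower (log2 fold change -1.81, 95% interval -2.23 to -1.40, adjusted p = 2.49e-05). On log2(FPKM + 1) the change was -0.59 by limma (adjusted p = 0.000227). ITGAE, the receptor subunit of intraepithelial lymphocytes for E-cadherin, was at 16.6, 19.5 and 18.6 CPM in Huh7 P and at 11.8, 15.7 and 15.02 CPM in Huh7 LR (log2 fold change -0.36, adjusted p = 0.0285). The ITGAE call was lost without Huh7 P replicate 2 (adjusted p = 0.12), Huh7 P replicate 3 (adjusted p = 0.0856) or Huh7 LR replicate 1 (adjusted p = 0.0787). ITGAE shares 6.41% of its exon bases with HASPIN on the opposite strand, and HASPIN was lower as well (log2 fold change -0.59, adjusted p = 0.000603). The library kit does not mark strand, so that reads in the shared bases cannot be told apart, and the part of HASPIN in the ITGAE value was not tested.

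ITGAL, the alpha subunit of the lymphocyte receptor for ICAM1, was at 15.8, 15.9 and 14.5 CPM in Huh7 P and at 15.6, 13.9 and 16.1 CPM in Huh7 LR (log2 fold change -0.02, 95% interval -0.23 to 0.20, adjusted p = 0.909). ITGB2, the beta subunit that both ITGAL and ITGAM need to reach the cell surface, had 2, 3 and 6 reads in Huh7 P and 12, 7 and 3 reads in Huh7 LR and was not tested. ITGB7, the partner of ITGAE, had no more than 2 reads in any library, and ITGAD had 2 reads in 1 library. The alpha subunits ITGAL, ITGAE and ITGAM were thus counted at 0.827 to 4.33 FPKM in Huh7 P, while ITGB2 was at 0.0516 FPKM and ITGB7 at 0.000913 FPKM. The FPKM of ITGAL over ITGAM went from 3.46 ± 0.221 in Huh7 P to 13.6 ± 3.61 in Huh7 LR without overlap (exact permutation p = 0.1, n = 3 each, 0.2 after adjustment).

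The 7 leukocyte markers summed to between 36.7 and 40.8 FPKM in Huh7 P and between 5.74 and 7.85 FPKM in Huh7 LR. Nearly all of this was LYZ, at 38.3 FPKM in Huh7 P and 5.61 FPKM in Huh7 LR (log2 fold change -2.79). TYROBP and HLA-DRA had no read in any library, and PTPRC had 6, 4 and 0 reads in Huh7 P and 2, 15 and 4 reads in Huh7 LR and was not tested. CD14 did not pass (log2 fold change 0.53, adjusted p = 0.0708).

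The partners of laminins and integrins were taken from 8 lists of 110 listed genes, of which 93 were tested. These lists were also chosen with earlier results of these data known. With an adjusted p under 0.05, 39 were higher in Huh7 LR (41.9%, against 23.3% of all genes tested) and 23 were lower (24.7%, against 22.4%). Past 2-fold with an adjusted p under 0.001, 5 were higher (5.38%, against 4.43% of all genes) and 6 were lower (6.45%, against 1.78%). Over these 93 the median log2 fold change was 0.11, beside 0.0046 over all genes tested.

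**Figure D4:**
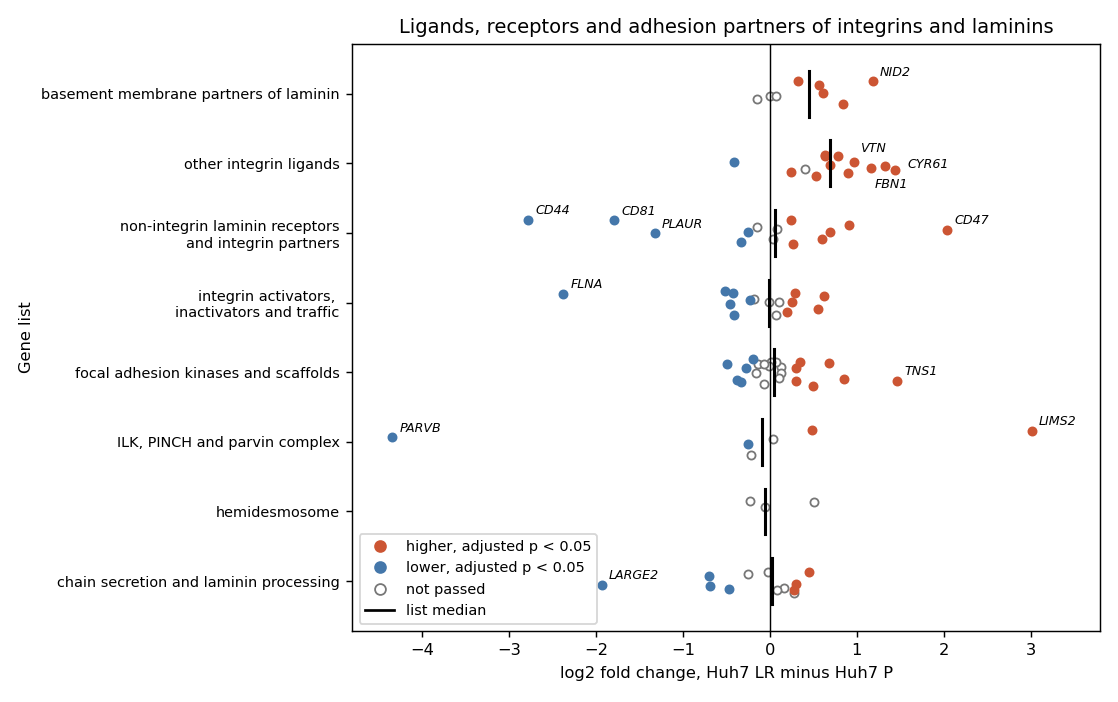
Log2 fold change (x axis, Huh7 LR minus Huh7 P) of each tested gene in 8 lists of integrin and laminin partners (y axis), with the median of each list as a vertical bar. Red and blue points passed an adjusted p under 0.05 as higher or lower, open points did not, and names are given for changes above 2-fold at that threshold. The medians of the basement membrane list (0.44) and of the other integrin ligands (0.69) lie to the right, and those of the other 6 lists lie between -0.09 and 0.06.

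Among the partners of laminin in the basement membrane, 5 of the 8 tested were higher (62.5%, against 23.3% of all genes) and none was lower (22.4% of all genes). FBLN1, a fibulin that binds laminin and nidogen, was higher at 182 ± 10.98 CPM in Huh7 LR against 120 ± 1.76 CPM in Huh7 P (SD, n = 3, log2 fold change 0.61, adjusted p = 4.50e-05). NID2, a nidogen that links laminin to type IV collagen, went from 0.166 to 0.379 CPM (log2 fold change 1.18, adjusted p = 0.0352), and SPARC, a collagen-binding matrix protein, went from 0.824 to 1.48 CPM (log2 fold change 0.84, adjusted p = 0.038). The NID2 call was lost without any 1 of the 6 libraries (adjusted p between 0.0617 and 0.119), by the Wald test of DESeq2 (adjusted p = 0.0839) and with no filter on low counts (adjusted p = 0.0614). The SPARC call was lost without Huh7 P replicate 2 or 3 or Huh7 LR replicate 1 or 2 (adjusted p up to 0.126).

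Among the other integrin ligands, 11 of the 13 tested were higher (84.6%, against 23.3% of all genes) and 1 was lower (7.69%, against 22.4%). VTN, the vitronectin that ITGAV with ITGB3 or ITGB5 binds, rose from 722 ± 32.3 CPM to 1610.4 ± 328 CPM (SD, n = 3 each, log2 fold change 1.16, adjusted p = 3.16e-05). FBN1, the fibrillin of elastic microfibrils, rose from 28.7 ± 1.99 to 72.1 ± 5.27 CPM (log2 fold change 1.33, adjusted p = 9.01e-07). CYR61, a matricellular protein now named CCN1, rose from 7.11 ± 0.629 to 19.2 ± 5.50 CPM (log2 fold change 1.43, adjusted p = 9.37e-05). In all 3 genes the Huh7 LR libraries lay above the Huh7 P libraries, which held for 28.2% of all genes tested.

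The non-integrin laminin receptors and the surface partners of integrins moved both ways, with 6 of 14 higher (42.9%, against 23.3% of all genes) and 5 lower (35.7%, against 22.4%). CD47, which binds thrombospondin and associates with ITGB3, rose from 0.439 ± 0.0856 to 1.81 ± 0.470 CPM (SD, n = 3 each, log2 fold change 2.03, adjusted p = 0.00018). CD44, the hyaluronan receptor, fell from 4.84 ± 0.517 to 0.708 ± 0.424 CPM (log2 fold change -2.78, adjusted p = 4.99e-05). CD81, a tetraspanin that associates with integrins, fell from 60.4 ± 1.96 to 17.5 ± 1.84 CPM (log2 fold change -1.79, adjusted p = 2.11e-07). PLAUR, the urokinase receptor, fell from 2.41 ± 0.279 to 0.961 ± 0.129 CPM (log2 fold change -1.32, adjusted p = 0.000326).

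On the cytoplasmic side, 5 of 15 activators, inactivators and traffic proteins were higher (33.3%, against 23.3% of all genes) and 6 were lower (40%, against 22.4%). FLNA, a filamin that binds beta subunits and actin, fell from 216, 194 and 182 CPM in Huh7 P to 28.6, 49.6 and 35.7 CPM in Huh7 LR (log2 fold change -2.38, adjusted p = 1.72e-06). TLN2, a talin, rose from 24.7 ± 1.83 to 38.0 ± 5.71 CPM (SD, n = 3 each, log2 fold change 0.62, adjusted p = 0.000922). Of 22 focal adhesion kinases and scaffolds, 7 were higher (31.8%) and 5 lower (22.7%), near the 23.3% and 22.4% of all genes. The higher ones included TNS1, a tensin that binds beta subunits (log2 fold change 1.46, adjusted p = 1.45e-05), the scaffold NEDD9 (0.85, adjusted p = 0.00265) and the tensin TNS3 (0.68, adjusted p = 8.26e-05).

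In the complex of ILK, PINCH and parvin proteins that sits behind beta subunits, 2 of 6 were higher and 2 lower (33.3% each, against 23.3% and 22.4% of all genes). PARVB fell from 8.10 ± 0.773 to 0.396 ± 0.0830 CPM (SD, n = 3 each, log2 fold change -4.34, adjusted p = 8.17e-08). In FPKM its fall was smaller, from 1.44 ± 0.118 to 0.188 ± 0.0790 (SD, n = 3 each), a log2 ratio of the means of -2.94. LIMS2, a PINCH protein, was higher on 19, 27 and 38 reads in Huh7 LR against 8, 0 and 2 reads in Huh7 P (log2 fold change 3.01, adjusted p = 0.00593). On so few reads the size of the LIMS2 change was poorly resolved, from 2.49 to 4.55 over the alternatives that tested it. PARVA was at 7.66 ± 0.549 CPM in Huh7 P and 10.7 ± 2.28 CPM in Huh7 LR (log2 fold change 0.49, adjusted p = 0.0226), a call that was lost without Huh7 P replicate 2 or 3 or Huh7 LR replicate 2 or 3 (adjusted p up to 0.087) and by limma on FPKM. None of the 3 hemidesmosome genes passed.

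Of 12 tested genes for secretion and processing of the chains, 3 were higher (25%, near the 23.3% of all genes) and 4 lower (33.3%, against 22.4%). HSP90B1, an endoplasmic reticulum chaperone that integrins need to fold, fell from 1157 ± 70.6 to 717 ± 27.7 CPM (SD, n = 3 each, log2 fold change -0.69, adjusted p = 2.49e-05). BMP1, a protease that trims laminin and collagen chains, fell from 11.6, 10.3 and 12.1 CPM in Huh7 P to 5.28, 8.15 and 7.46 CPM in Huh7 LR (log2 fold change -0.70, adjusted p = 0.00358). LARGE2, which builds the laminin-binding sugar of dystroglycan, fell from 3.61 ± 0.260 to 0.945 ± 0.334 CPM (log2 fold change -1.93, adjusted p = 8.15e-05).

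The tested genes within 1 Mb of each of the genes were also described, where 23.3% of all genes tested were higher and 22.4% lower. Around LAMA3, 8 of 11 neighbours were higher and none was lower, with a median log2 fold change of 0.77 against 4.01 for LAMA3 itself. Around LAMA5, 8 of 20 neighbours were higher and 3 lower (median 0.09), and around LAMB1 4 of 14 were higher and 6 lower (median -0.15). The neighbours of ITGA3 (10 of 31 higher, 8 lower, median 0.16), ITGB3 (3 of 26 higher, 4 lower, median -0.04) and ITGAM (7 of 45 higher, 7 lower, median 0.03) had medians nearer to 0 than the genes themselves.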

How the data were processed

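The authors deposited 1 table with, for each gene and library, a count of reads (whole numbers, not normalized) and an FPKM value, in which the authors divided by transcript length and by library size. Per the labels, poly(A) RNA was made into libraries with NEBNext Ultra, a kit that does not mark strand. The submitters' processing notes name TopHat2, Cufflinks, DESeq and the mouse build mm10, while the identifiers are those of human genes, and the extraction text of the labels speaks of an insect. Reads of overlapping genes on opposite strands thus cannot be told apart. All 19974 annotated identifiers, and the symbols of all 38 genes, are in GENCODE release 29, whose GRCh38 coordinates and exon overlaps are used, and 34 lines without a gene were left out.

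The counts were tested with edgeR 4.0.16 in R 4.3.3, with TMM factors (0.977 to 1.03), the filter filterByExpr (minimum count 10, minimum total 15) and the quasi-likelihood test of Huh7 LR against Huh7 P over the whole table, with Benjamini-Hochberg adjustment. The biological coefficient of variation was 12.7%. The study called genes past 2-fold at p under 0.001, and the adjusted p is used here. Sums and ratios of FPKM were compared by a two-sided exact permutation test. Promoters are from RefSeq's table, 250 bases before the start. Alternatives were DESeq2 1.42.0 (size factors and Wald test), other filters, a replicate block, limma-trend (limma 3.58.1) on log2(FPKM + 0.1) or log2(FPKM + 1), where 3 or more libraries had to reach 0.5 FPKM, and each library left out. Summing genes that share exons and counting separated libraries under scaling to total counts were added after seeing the data. The tests were tested on simulated data. Figures were drawn with matplotlib 3.10.9.

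The genes, the lists of partners and the markers were chosen with earlier results of these data known. Any of the 38 genes may be named, and from each list of partners the genes past 2-fold at an adjusted p under 0.001 and the 3 with the largest change at an adjusted p under 0.05. Exon overlaps were examined for the 38 genes only. A few genes that entered the counts and fits are not reported here by name.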

Additional observations from a re-analysis of the deposited data

How the results depend on the processing

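With 3 libraries per line and a handful of reads for some genes, changes in LAMB3, ITGA9, ITGA10 and ITGA11 were poorly resolved, and no sum or ratio can reach a permutation p under 0.1. Of the values of counts and sums under the alternatives, 103 kept their direction and their side of the threshold or stayed within 1.5 times, and 4 did not. Where each library was left out in turn, between 9 and 11 of the genes were higher and between 1 and 3 lower at an adjusted p under 0.05 (1 without Huh7 P replicate 2), and between 1 and 3 were higher past 2-fold (1 without Huh7 P replicate 3, where ITGB3 was at 0.99, and 3 without Huh7 LR replicate 2, where ITGA3 reached 1.02). By limma on log2(FPKM + 1), 1 was higher past 2-fold and 0 lower, where ITGAM was at -0.59. That scale shrinks the changes of low genes by construction.

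Single genes changed sign in 16 values, in genes that passed the test neither as reported nor under that alternative, and the cause was not tested. With each library left out in turn, the log2 fold change ranged from -0.90 to 0.20 in ITGA10, from -0.084 to 0.39 in ITGA2B, from -0.040 to 0.12 in ITGA5, from -0.014 to 0.39 in ITGA9, from -0.061 to 0.055 in ITGAL, from -0.047 to 0.10 in ITGAV, from -0.089 to 0.15 in ITGB4 and from -0.058 to 0.35 in LAMB4. With at least 10 counts in every library required, ITGAL was at 0.0018.

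The correlation of the deviations of same-numbered libraries was 0.029, 0.0314 and 0.0317. Such small values do not settle whether the numbers of the replicates pair the samples. Each library correlated best with its own number, a hint from the data only. With a replicate block, 10 of the genes were higher and 3 lower, 2 and 1 of them past 2-fold, and of the partners 37 were higher and 25 lower. The NID2 call was lost with the block (adjusted p = 0.0729).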
